A study of Mus musculus with 16 samples.

Results

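Sftpc, Sftpa1, Cav2, Acvrl1, Sparc and Acta2 are transcripts of the structural cells of the lung: alveolar epithelium, vascular endothelium, fibroblasts and smooth muscle. They were measured here in RNA of sorted neutrophils. The 6 genes were found by their symbols and make up 6 of the 10296 genes listed in the deposited table. The 16 libraries came from Ly6G+ neutrophils of C57BL/6 mice kept germ-free (GF) or specific-pathogen-free (SPF). There were 3 lung GF, 3 lung SPF, 3 spleen GF, 3 spleen SPF, 2 blood GF and 2 blood SPF libraries, and no label names a genetic change or a treatment in any of them. Cells were sorted on CD45, CD11b, Ly6G and DAPI at purities typically above 95%, per the labels' protocols, and the RNA was amplified with a kit for small inputs and sequenced in paired reads of 61 bases. The study set neutrophils of 3 tissues and of GF mice side by side. No label tells whether the libraries within a group are different animals. Every p-value therefore measures only the spread between these libraries.

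Alveolar type II cells make surfactant, the film of lipid and protein that keeps alveoli open, and Sftpc and Sftpa1 encode 2 of its proteins. Endothelial cells of the lung are rich in caveolae, the small membrane pits whose coat holds caveolin-2, and they carry ALK1, the receptor for BMP9 and BMP10 that Acvrl1 encodes. Sparc is a collagen-binding matrix protein of fibroblasts and endothelium, and Acta2 is the smooth muscle actin of airway and vessel walls and of myofibroblasts. None of the 6 proteins is used as a neutrophil marker.

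The 6 genes lie on 5 chromosomes of the mouse build GRCm38, in the GENCODE M21 annotation, and all are protein-coding. Sftpc (ENSMUSG00000022097) is at chr14:70520949-70524081 on the minus strand and Sftpa1 (ENSMUSG00000021789) at chr14:41131782-41136452 on the plus strand. Cav2 (ENSMUSG00000000058) is at chr6:17281185-17289115 on the plus strand and Acvrl1 (ENSMUSG00000000530) at chr15:101128522-101145336 on the plus strand. Sparc (ENSMUSG00000018593) is at chr11:55394500-55423183 and Acta2 (ENSMUSG00000035783) at chr19:34241090-34255590, both on the minus strand. Cav2 overlaps the gene Gm15581 with 0 shared exonic bases, and Acvrl1 shares 127 of its 4265 exonic bases with the gene Gm16031. The kit is not described as marking strand, so reads in those 127 bases cannot be told apart between Acvrl1 and Gm16031.

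Promoter windows of 300 bases (250 before the start and 50 after it) are given for a surfactant and a caveolar gene, 5′ to 3′. The RNA of both genes was high in the same libraries, and the windows come from RefSeq on GRCm38.p6. Capitals mark 3 motifs searched on both strands: the TATA box TATAAA, the CTCAAG core bound by the lung epithelial factor NKX2-1, and the GC box GGGCGG. The Sftpa1 window is chr14:41131538-41131837 and the Cav2 window chr6:17280935-17281234, both on the plus strand.
Sftpa1 promoter: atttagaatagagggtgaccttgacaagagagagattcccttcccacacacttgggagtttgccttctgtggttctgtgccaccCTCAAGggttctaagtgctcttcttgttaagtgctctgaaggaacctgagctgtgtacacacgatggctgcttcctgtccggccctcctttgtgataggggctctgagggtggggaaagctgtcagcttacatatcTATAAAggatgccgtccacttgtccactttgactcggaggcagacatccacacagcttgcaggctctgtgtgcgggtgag
Cav2 promoter: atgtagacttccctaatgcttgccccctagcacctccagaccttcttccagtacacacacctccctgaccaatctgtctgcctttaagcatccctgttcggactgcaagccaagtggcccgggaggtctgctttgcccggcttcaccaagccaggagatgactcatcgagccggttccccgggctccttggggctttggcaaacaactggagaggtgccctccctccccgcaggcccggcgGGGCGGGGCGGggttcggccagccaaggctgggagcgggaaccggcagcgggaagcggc
The Sftpa1 window holds 1 TATAAA and 1 CTCAAG, and the Cav2 window holds 2 overlapping GGGCGG. Of the 32851 promoter windows in the RefSeq table, 13.6% hold TATAAA, 15.9% hold CTCAAG and 35.7% hold GGGCGG. A match describes the letters only. The windows of Sparc and Acta2 held 0 of these motifs, and Sftpc and Acvrl1 had no entry in the table.

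Values are normalised counts: the deposited value less the lowest value of its library, read here as an offset of 0.5 reads. That reading was inferred from the spacing of the values and is stated by no label, and every read count, floor, fold bound and interval rests on it. One read was worth 0.392 to 7.62 normalised counts, since the libraries held 504208 to 1147991 reads in lung, 104213 to 640596 in spleen and 132798 to 3033941 in blood. All 12 neutrophil markers of a fixed list were present in every tissue, with summed levels of 34430 to 58599 in lung, 39216 to 82395 in spleen and 54268 to 95063 in blood. Macrophage markers summed to 817 to 1029 in lung, 1067 to 1412 in spleen and 580 to 1438 in blood. Most of that sum was Csf1r, at 609 to 783 in lung, 790 to 1117 in spleen and 406 to 1150 in blood. Platelet and erythroid markers summed to 29.6 to 1383 in lung, 30.0 to 15695 in spleen and 29226 to 59242 in blood. Most of the blood sum was haemoglobin, with Hbb-bs at 14724 to 25902 and Hba-a1 at 9354 to 24171. The highest spleen sum was that of spleen GF 1, where Hbb-bs stood at 8476. The spleen GF median was 61.1, and the spleen SPF libraries summed to 56.6 to 65.6. B cell markers summed to 474 to 694 in lung, 441 to 754 in spleen and 466 to 682 in blood. Most of that sum was Ighm, at 345 to 570 in lung, 391 to 697 in spleen and 456 to 675 in blood. Igkc had 20.5 to 43.5 in lung, 0 to 42.0 in spleen and 0 to 4.31 in blood. T and NK cell markers summed to at most 22.9 in lung, 25.4 in spleen and 16.7 in blood. By limma at an adjusted p under 0.05, 7.83% of all tested genes were higher and 1.96% lower in lung GF than in blood GF. In lung SPF against blood SPF these shares were 12.5 and 6.63%. Against spleen they were 8.03 and 2.14% in GF and 7.68 and 1.99% in SPF. Against blood, lung GF had 1 neutrophil entry higher and 2 lower of 13, 1 of 8 macrophage, 2 of 6 B cell and 0 of 2 T and NK cell genes higher, and 6 of 8 platelet and erythroid genes lower. Lung SPF against blood SPF had 3 neutrophil entries higher and 6 lower, 3 macrophage, 5 B cell and 1 T and NK cell genes higher, and 4 platelet and erythroid genes lower. Against spleen, 1 neutrophil entry was higher and 6 lower in each status, and of the other lists 3 B cell genes were higher in lung SPF. Several of these counts moved by over 1.5 times with single libraries, as between 0 and 3 for B cell genes in lung SPF against spleen SPF.

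Reads of 5 of the 6 genes (Sftpc, Sftpa1, Cav2, Acvrl1 and Sparc) were abundant in every lung library and scarce in every other library. Acta2 had reads in every library of all 3 tissues. How many of all tested genes separate lung from the other libraries in this way was not counted, so nothing is read from that number of genes. Together those 5 genes took 0.433, 0.905 and 0.924% of the reads in the lung GF libraries and 0.239, 0.290 and 0.461% in the lung SPF libraries. The same 5 genes took 0.00109 to 0.00458% of the reads in the 6 spleen libraries and 0.000626 to 0.00301% in the 4 blood libraries. The lowest lung share, in lung SPF 1, had an exact (Clopper-Pearson) 95% interval of 0.226 to 0.253%, and the highest share outside the lung, in spleen GF 1, one of 0.00209 to 0.00869%. Such intervals cover counting error only. In bulk RNA, fewer cells of a type and less RNA per cell cannot be told apart.

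**Figure D1:**
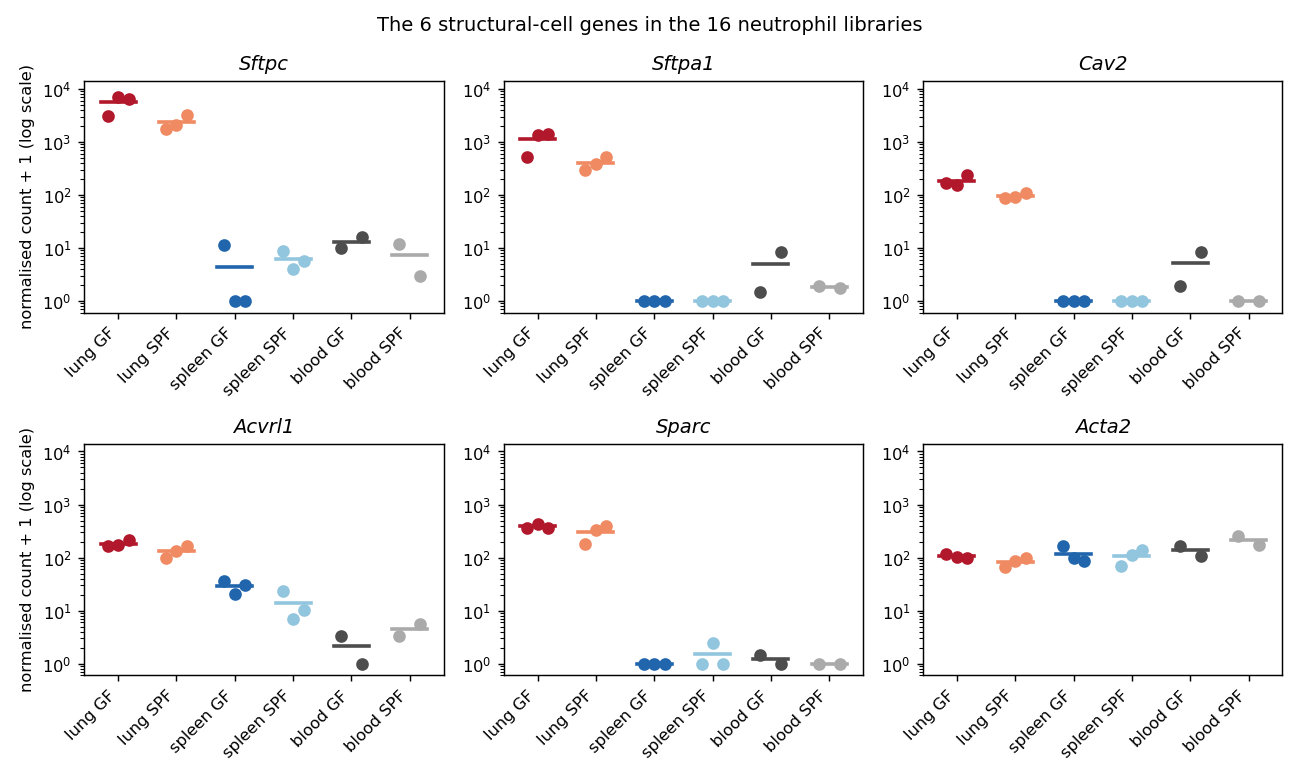
Normalised count plus 1 on a log axis for each gene; a point is a library and a bar a group mean. The lung points of Sftpc, Sftpa1, Cav2, Acvrl1 and Sparc stand above all spleen and blood points, and Acta2 lies between 65.0 and 253 in all 16 libraries.

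Sftpc, which encodes surfactant protein C, was the most abundant of the 6. It had 3040, 7069 and 6490 normalised counts in the lung GF libraries, against 10.1, 0 and 0 in spleen GF and 8.89 and 14.8 in blood GF. It had 1715, 2113 and 3178 in the lung SPF libraries, against 7.62, 2.98 and 4.70 in spleen SPF and 10.8 and 1.96 in blood SPF. Lung and other libraries did not overlap, and Sftpc ranked 10th to 84th among the 10296 genes in the lung libraries. The lung values rest on 870 to 7988 reads per library, the spleen values on 0 to 2 and the blood values on 2 to 24. Sftpc was higher in lung GF than in blood GF by 8.53 on the log2 scale (SE 0.76, adjusted p = 5.91e-06, limma with Benjamini-Hochberg adjustment over 8299 genes) and in lung SPF than in blood SPF by 8.52 (SE 0.76, adjusted p = 5.62e-06). Against spleen the difference was 10.03 in GF (SE 0.68, adjusted p = 3.95e-07) and 8.18 in SPF (SE 0.68, adjusted p = 2.85e-06). As a ratio of levels, lung SPF stood 384-fold above blood SPF, with a counting interval of 267 to 573. Leaving out blood SPF replicate 3 or 4 gave 9.48 or 7.55, and leaving out spleen GF replicate 1 gave 10.76 for lung GF against spleen GF.

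Sftpa1, which encodes the collectin surfactant protein A, was lower than Sftpc in each lung library, by 4.56 to 6.06 times. It had 522, 1374 and 1423 normalised counts in lung GF, against 0 reads in all 3 spleen GF libraries and 1 read in each of the 2 blood GF libraries. It had 292, 375 and 525 normalised counts in lung SPF, against 0 reads in all 3 spleen SPF libraries and 2 reads in each of the 2 blood SPF libraries. No library outside the lung came near a lung value. Lung GF stood at least 283-fold above spleen GF and lung SPF at least 134-fold above spleen SPF, each against a floor of 3 reads over the pooled spleen libraries. Sftpa1 entered the test only through its lung values, since 1 library outside the lung reached the minimum value. It was higher in lung than in blood by 7.80 on the log2 scale in GF (SE 0.64, adjusted p = 3.81e-10) and by 7.56 in SPF (SE 0.64, adjusted p = 6.66e-10). Against spleen the fitted difference was 8.32 in GF (SE 0.57, adjusted p = 1.00e-11) and 6.99 in SPF (SE 0.57, adjusted p = 3.53e-10). The GF blood value turned on 1 read per library: it was 6.38 without blood GF replicate 2 and 9.21 without blood GF replicate 3.

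Cav2, the caveolin that pairs with caveolin-1 in the caveolar coat, had 167, 151 and 235 normalised counts in lung GF and 86.7, 89.7 and 108 in lung SPF. The 6 spleen libraries held 0 reads of Cav2, the blood GF libraries 2 and 1, and the blood SPF libraries 0. Every lung library, with 44 to 171 reads, was above every other library. Cav2 was at least 47.2-fold higher in lung GF than in spleen GF, at least 32.1-fold higher in lung SPF than in spleen SPF and at least 151-fold higher in lung SPF than in blood SPF. Against blood GF, with 3 reads in all, the ratio was 140, with a counting interval of 47.8 to 677. Cav2, too, entered the test only through its lung values. The fitted log2 differences were 5.15 for lung GF against blood GF (SE 0.65, adjusted p = 7.76e-07) and 6.31 for lung SPF against blood SPF (SE 0.65, adjusted p = 2.08e-08). For lung against spleen they were 5.85 in GF (SE 0.58, adjusted p = 8.99e-09) and 4.98 in SPF (SE 0.58, adjusted p = 1.71e-07). The GF blood difference was 3.91 without blood GF replicate 2 and 6.39 without blood GF replicate 3.

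Acvrl1 was the only one of the 5 lung-abundant genes with reads in all 6 spleen libraries. It had 168, 170 and 212 normalised counts in lung GF, against 35.5, 19.7 and 30.0 in spleen GF and 2.34 and 0 in blood GF. It had 98.5, 131 and 161 in lung SPF, against 22.9, 5.96 and 9.40 in spleen SPF and 2.26 and 4.70 in blood SPF. By these values the 3 tissues did not overlap within either colonisation status, with lung highest and blood lowest. Library by library, the order of spleen and blood is not resolved. Blood GF 3 had 0 reads and a floor of 22.2 at 3 reads, above the 19.7 of spleen GF 3. Spleen SPF 1 and 4 lay at or under their own floors of 22.9 and 14.1. The spleen values rest on 7, 8 and 5 reads in GF and 3, 4 and 2 in SPF. Acvrl1 was higher in lung than in blood by 5.49 on the log2 scale in GF (SE 0.49, adjusted p = 1.73e-09) and by 4.83 in SPF (SE 0.49, adjusted p = 2.02e-08). It was higher in lung than in spleen by 2.58 in GF (SE 0.44, adjusted p = 8.50e-05) and by 3.21 in SPF (SE 0.44, adjusted p = 2.89e-06). In spleen GF it was above blood GF by 2.91 (SE 0.49, adjusted p = 0.000733), a call lost when reads were thinned to the smallest library (2.47, adjusted p = 0.158). In spleen SPF it was above blood SPF by 1.62 (SE 0.49, adjusted p = 0.0427), and 9 of 12 alternative settings ended that call. Leaving out single libraries ended it in 9 of 16 cases, among them spleen SPF replicate 1 (1.13, adjusted p = 0.175), blood SPF replicate 3 (1.24, adjusted p = 0.421) and blood SPF replicate 4 (2.0, adjusted p = 0.0705).

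Sparc, the matrix gene, had 367, 434 and 364 normalised counts in lung GF and 183, 327 and 398 in lung SPF. Outside the lung it was nearly without reads: 1 read in spleen SPF 2, 1 read in blood GF 2 and 0 in the other 8 libraries. It was at least 99.5-fold higher in lung GF than in spleen GF and at least 481-fold higher in lung SPF than in blood SPF. Where the group outside the lung held 1 read, the ratio was 883 for lung GF against blood GF, with a counting interval of 158 to 34877, and 307 for lung SPF against spleen SPF, with one of 55.2 to 12143. Sparc entered the test only through its lung values. The fitted log2 differences were 7.10 for lung GF against blood GF (SE 0.56, adjusted p = 1.64e-10) and 7.90 for lung SPF against blood SPF (SE 0.56, adjusted p = 1.82e-11). Against spleen they were 6.94 in GF (SE 0.50, adjusted p = 1.56e-11) and 6.28 in SPF (SE 0.50, adjusted p = 1.55e-10). Without blood GF replicate 2 or 3 the GF blood difference was 6.37 or 7.84.

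Acta2 was present in all 16 libraries and was not higher in lung. It had 115, 101 and 97.1 normalised counts in lung GF, against 162, 96.3 and 84.1 in spleen GF and 165 and 107 in blood GF. It had 65.0, 85.1 and 95.8 in lung SPF, against 68.6, 112 and 141 in spleen SPF and 253 and 169 in blood SPF. Lung and spleen overlapped in both GF and SPF, lung and blood overlapped in GF, and every lung SPF library was below both blood SPF libraries. The difference of lung SPF from blood SPF was -1.33 on the log2 scale (SE 0.33, adjusted p = 0.00397). It was -1.25 with thinned reads (adjusted p = 0.119) and -1.04 without blood SPF replicate 3 (adjusted p = 0.141). Lung GF differed from blood GF by -0.37 (95% interval -1.04 to 0.31, adjusted p = 0.575), and the change in the lung-to-blood difference between GF and SPF was 0.97 (SE 0.47, adjusted p = 0.656). Against spleen, lung GF differed by -0.10 (-0.70 to 0.51, adjusted p = 0.896) and lung SPF by -0.36 (-0.97 to 0.24, adjusted p = 0.542). The first of these was 0.18 without spleen GF replicate 1. Spleen GF differed from blood GF by -0.27 (adjusted p = 0.791, or 0.020 as a difference without blood GF replicate 2), and spleen SPF from blood SPF by -0.97 (adjusted p = 0.0700). The last of these passed the threshold without spleen SPF replicate 4 (-1.19, adjusted p = 0.0302) and without spleen GF replicate 1 (-0.97, adjusted p = 0.0445). It also passed under median-ratio rescaling (-1.20, adjusted p = 0.0315) and with a minimum value of 100 (-0.97, adjusted p = 0.0349).

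Acta2 belongs to a family of actins with closely similar coding sequences, so its reads were checked for likeness to other actins. Of 2135 windows of 61 bases, the read length, along its GENCODE M21 transcripts, 0 occurred exactly in a transcript of another gene, and the same count was 0 for each of the other 5 genes. Only the strand of each transcript was searched. A match to a gene on the opposite strand could not be found this way, and the bases that Acvrl1 shares with Gm16031 gave 0 matching windows. Of the 1975 windows of the annotated Acta2 transcript that is 2035 bases long, 16 (0.81%) came within 2 mismatches of Actg1, a cytoplasmic actin, and 0 within 2 mismatches of Actb, Acta1, Actc1 or Actg2, where the fewest mismatches were 4. The closest window is shown because it is where an Actg1 read would be hardest to tell from an Acta2 read; it is coding in both, at bases 1234 to 1294 of that Acta2 transcript on chromosome 19 and bases 295 to 355 of the matching Actg1 transcript on chromosome 11.
Acta2 window: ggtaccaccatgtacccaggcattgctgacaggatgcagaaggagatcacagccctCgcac
Actg1 window: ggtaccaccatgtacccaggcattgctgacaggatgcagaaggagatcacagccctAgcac
The capital marks the 1 difference, C57A, counted from 1 at the 5′ end of the window. Actg1 had 10745 to 15685 normalised counts in lung, 4404 to 8576 in spleen and 8620 to 13021 in blood. Actb had 4235 to 6131 in lung, 5594 to 19494 in spleen and 13418 to 27660 in blood, an order of tissues nearer to that of Acta2. How many reads the authors' counting passed between actins was not tested.

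By count, 5 of the 6 genes passed the threshold of 0.05 in lung GF against blood GF, all higher, where 9.8% of the 8299 tested genes passed in either direction. In lung SPF against blood SPF all 6 passed, 5 higher and Acta2 lower, where 19.1% of tested genes passed. In lung GF against spleen GF 5 passed, with 10.2% of tested genes, and in lung SPF against spleen SPF 5 passed, with 9.66%. Sftpc, Sftpa1, Cav2, Acvrl1 and Sparc made up the higher ones in all 4 comparisons. In spleen GF against blood GF 1 of 6 passed (Acvrl1), where 0.88% of tested genes did, and in spleen SPF against blood SPF 1 of 6 (Acvrl1), where 7.06% did. The GF comparisons with lung share the lung GF libraries, and the SPF ones the lung SPF libraries. Genes were tested if 2 libraries reached a deposited value of 10. All 6 lung libraries reached it for every gene, but of the other 10 libraries 0 did for Sparc, 1 for Sftpa1, 1 for Cav2, 4 for Sftpc, 5 for Acvrl1 and 10 for Acta2. Sparc, Sftpa1 and Cav2 were therefore tested only through their lung values, the group where they are high, as were 915 of the 8299 tested genes (11%). Their passes are a description of that selection as well as of the difference, and nothing is read from the count of 5. Between spleen and blood no difference is given for Sftpc, Sftpa1, Cav2 and Sparc, which had at most 24 reads in any library there.

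**Figure D2:**
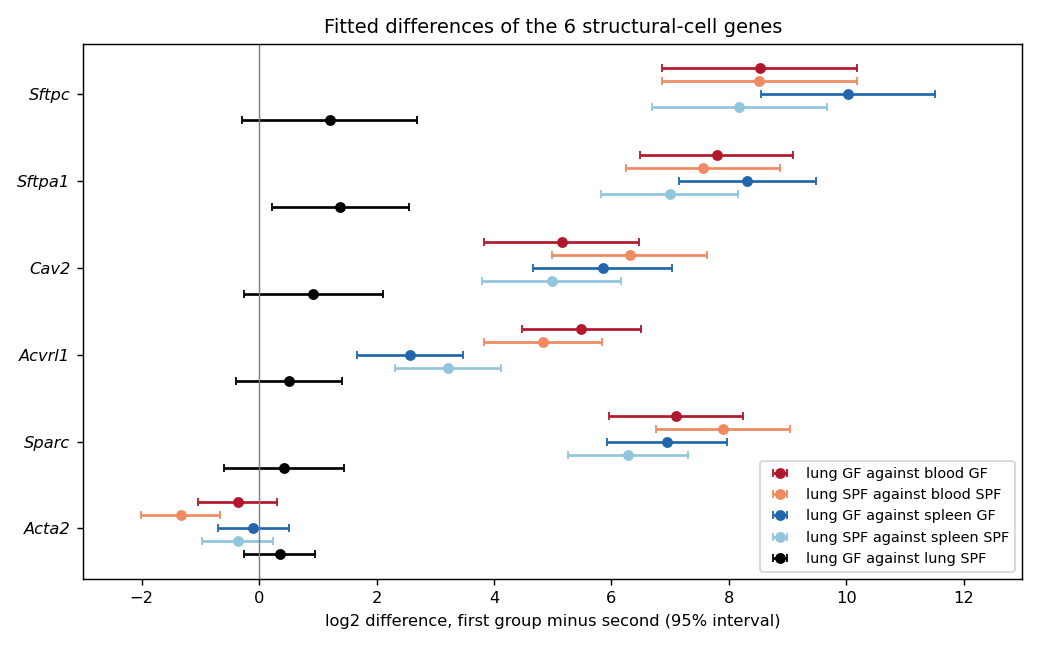
Log2 difference with its 95% interval, for 4 comparisons of lung with another tissue and for lung GF against lung SPF. All genes but Acta2 lie far right of 0 in the tissue comparisons, from 2.58 for Acvrl1 against spleen GF to 10.03 for Sftpc against spleen GF, and Acta2 lies left of 0 there, from -1.33 to -0.10.

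Per kilobase of exonic length, the lung levels ran from Sftpc at 3805 ± 2204 normalised counts per kilobase (SD, n = 6) to Acvrl1 at 36.7 ± 9.03. Sftpa1 stood at 263 ± 178, Sparc at 91.2 ± 23, Acta2 at 42.4 ± 7.63 and Cav2 at 41.9 ± 17.1. Acta2, Cav2 and Acvrl1 were closer to each other than their spread over libraries. Exonic length counts the bases of all annotated transcripts, 1034 for Sftpc and 2196 to 4265 for the others.

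Between lung GF and lung SPF, every one of the 6 genes had the higher mean in GF, but 0 of 6 passed the threshold in limma, where 0.0241% of tested genes did. At an unadjusted p under 0.05, Sftpa1 alone of the 6 passed, as did 332 of the 8299 genes. Sftpa1 averaged 1106 ± 507 in lung GF and 397 ± 118 in lung SPF (SD, n = 3 each), a log2 difference of 1.38 with a 95% interval of 0.21 to 2.55. Sftpc averaged 5533 ± 2179 in lung GF and 2335 ± 757 in lung SPF, a difference of 1.20 (-0.29 to 2.68). The lowest GF library of both genes, lung GF 2, lay below the highest SPF library, lung SPF 3. Cav2 averaged 184 ± 44.5 in lung GF and 94.9 ± 11.7 in lung SPF, a difference of 0.92 (-0.26 to 2.11). Acvrl1 averaged 183 ± 24.7 in lung GF and 130 ± 31.4 in lung SPF, a difference of 0.51 (-0.40 to 1.41). Sparc averaged 388 ± 39.8 in lung GF and 303 ± 109 in lung SPF, a difference of 0.42 (-0.60 to 1.45). Acta2 averaged 104 ± 9.25 in lung GF and 82.0 ± 15.6 in lung SPF, a difference of 0.35 (-0.25 to 0.96). The adjusted p was 0.999 for all 6. Every lung GF library was above every lung SPF library for 3 of the 6 genes (Cav2, Acvrl1 and Acta2), against 8.22% of tested genes. The upper bounds of the intervals lay between 0.96 for Acta2 and 2.68 for Sftpc.

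Among the 6 lung libraries, the ratio of the 2 surfactant genes varied least of the 8 ratios computed. Those of a surfactant gene to Cav2 or Sparc varied most. The ratio of Sftpc to Sftpa1 was 5.83, 5.15 and 4.56 in lung GF 2, 3 and 4 and 5.88, 5.63 and 6.06 in lung SPF 1, 2 and 3, a coefficient of variation of 10.2%. Both genes meanwhile ranged widely: the highest library exceeded the lowest by 4.12 times for Sftpc and 4.88 times for Sftpa1. The ratio of Sftpc to Cav2 was 18.2, 46.7 and 27.6 in the lung GF libraries and 19.8, 23.5 and 29.3 in the lung SPF libraries, a coefficient of variation of 37.5%. The ratio of Sftpc to Sparc was 8.28, 16.3 and 17.8 in lung GF and 9.35, 6.45 and 7.99 in lung SPF, with a coefficient of variation of 43.4%. Lung GF 3 thus had the most Sftpc relative to Cav2, and lung GF 2 the least. Among the genes other than Sftpc and Sftpa1, the ratio of Acvrl1 to Cav2 ran from 0.90 to 1.49, a coefficient of variation of 20.1%. That of Sparc to Cav2 ran from 1.55 to 3.67 (32.5%). Sparc to Acvrl1 ran from 1.72 to 2.56 (16.1%) and Acta2 to Sparc from 0.232 to 0.355 (16.9%). These coefficients of variation include counting error, which is larger for genes with few reads. Cav2 had 44 to 171 reads per lung library and Acvrl1 50 to 192, against 870 to 7988 for Sftpc. The part of counting error in the order of the ratios was not tested.

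**Figure D3:**
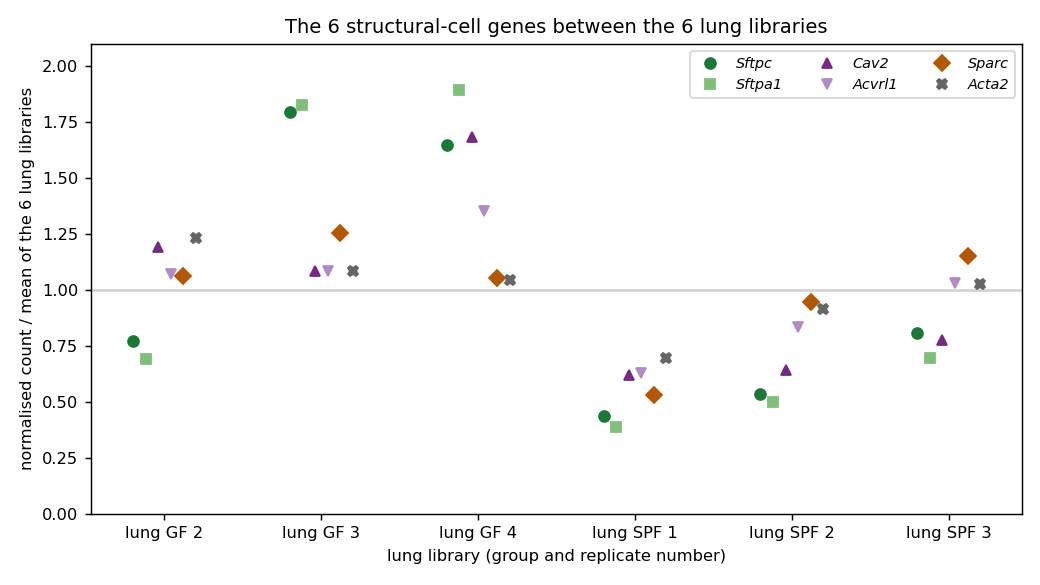
Normalised count of each gene divided by its mean over the 6 lung libraries, by library; a point is a gene. Sftpc and Sftpa1 lie together in every library, apart from Sparc and Acta2 in lung GF 3 and 4, and all 6 genes are lowest in lung SPF 1.

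The order of libraries differed between genes. Lung GF 3 was highest for Sftpc and Sparc, lung GF 4 for Sftpa1, Cav2 and Acvrl1, and lung GF 2 for Acta2. Lung SPF 1 was lowest for all 6 genes, and it was also the lung library with the fewest reads (504208, against 651389 to 1147991 in the others). It had the highest S100a9 of the lung libraries (17841, against 8376 to 11159) and the highest S100a8 (13479, against 5550 to 7818). Mmp9 was highest there too, at 6699, but Csf3r was not (7982, against 8683 in lung SPF 2). The parts of depth and of neutrophil RNA in that order were not tested. The spread was widest for the epithelial genes and narrowest for Acta2: the coefficient of variation over the 6 libraries was 57.9% for Sftpc, 67.7% for Sftpa1, 40.8% for Cav2, 25.2% for Sparc, 24.6% for Acvrl1 and 18% for Acta2.

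Correlations of log2 levels over the 6 lung libraries were all positive, with Pearson's r between 0.545 (Cav2 with Sparc) and 0.995 (Sftpc with Sftpa1). For Sftpc with Sftpa1, r was 0.995 (exact permutation p = 0.00417, adjusted over 15 pairs 0.0625) and Spearman's rho 0.943 (exact permutation p = 0.0167, adjusted 0.0833). It was 0.996 without lung GF 3 and 4, and 0.986 for deviations from the GF and SPF means. Cav2 with Acvrl1 followed with r = 0.888 (exact permutation p = 0.0125, adjusted 0.0833) and rho = 0.943, 0.858 without lung GF 4 and lung SPF 1 and 0.762 within status. Sparc with Acta2 had r = 0.886 (exact permutation p = 0.0403, adjusted 0.0833) and rho = 0.714, 0.481 without lung GF 3 and lung SPF 1 and 0.857 within status, so the pooled relation rests in part on those 2 libraries. By these exact two-sided permutation tests, 0 of 15 pairs passed 0.05 after adjustment, with adjusted p between 0.0625 and 0.274 for r and between 0.0833 and 0.356 for rho. Unadjusted, 7 of 15 passed by r and 4 by rho. The smallest unadjusted p that 6 libraries allow is 0.00139.

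Over all 16 libraries, the genes whose log2 level ran most like Sftpc were Sftpa1 (r = 0.986), Cxcl2 (0.983) and Cd34 (0.981), among 8298 genes compared. Most like Sftpa1 were Cav1 (0.993), Sftpd (0.991) and Cyp4b1 (0.991), and most like Cav2 were Cyp4b1 (0.992), Ramp2 (0.992) and Adgrl4 (0.992). Pltp (0.996), Fmo2 (0.995) and Egfl7 (0.995) were most like Sparc. Nrp1 (0.963), Impdh1 (0.953) and Jup (0.95) were most like Acvrl1. For Acta2 the highest were Pef1 (0.926), Tspo (0.912) and Cdipt (0.911). An r over 0.95 was reached by 80 genes for Sftpc, 119 for Sftpa1, 134 for Cav2, 131 for Sparc and 3 for Acvrl1, and by 0 for Acta2. These coefficients share libraries and their scaling, and are mostly set by the contrast of lung with other libraries. Within the 6 lung libraries alone, Sftpa1 (0.995) was again most like Sftpc, ahead of Alad (0.991) and 6430548M08Rik (0.990), and Sftpc (0.995), Sftpd (0.992) and Dync2li1 (0.991) were most like Sftpa1. Afg3l2 (0.989) and Gm21092 (0.987) were among the 3 highest for Cav2. The 3 highest were Sdf2 (0.997), Fmo2 (0.989) and Htatsf1 (0.985) for Acvrl1, Stxbp5 (0.991), Snrnp48 (0.990) and Ruvbl2 (0.990) for Sparc, and Cfap97 (0.995), Prmt2 (0.993) and Hipk2 (0.989) for Acta2.

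Other genes of the same cell types were described by lists, with the 6 genes left out of the medians. Over all tested genes, 7.83% were higher in lung GF than in blood GF, 12.5% in lung SPF than in blood SPF, 8.03% in lung GF than in spleen GF and 7.68% in lung SPF than in spleen SPF. Many listed genes were tested only through their lung values, so the counts below describe them and support nothing. Such genes were 5 of 9 surfactant and alveolar type II, 2 of 3 alveolar type I and 5 of 7 airway and pan-epithelial genes. In the other structural lists they were 3 of 4 caveolar, 2 of 8 ALK1 and BMP, 3 of 5 contractile and 8 of 9 matrix genes. Of the 12 surfactant and alveolar type II genes fixed, 9 were tested, Sftpc and Sftpa1 among them. In lung against blood 7 of 9 were higher in GF and 7 in SPF, and in lung against spleen 6 in GF and 5 in SPF. The collectin Sftpd averaged 170 ± 73.1 in lung GF and 62.3 ± 18.2 in lung SPF, with 0 reads in spleen, and Cxcl15 70.6 ± 32.0 and 25.8 ± 14.3 with 0 reads in spleen. Napsa, an aspartic protease, was not lung-restricted: 288 ± 16.9 in lung GF, against 232 ± 77.1 in spleen GF and 270 ± 88.4 in blood GF. The lipid transporter Abca3 averaged 56.8 ± 28.5 in lung GF, against 22 ± 5.08 in spleen GF (limma adjusted p = 0.189), and 26.7 ± 9.42 in lung SPF, against 25.2 ± 11.3 in spleen SPF (adjusted p = 0.970). The 3 tested genes of the 7 alveolar type I genes were higher than in blood in all cases (3 of 3 in GF and in SPF, but 1 of 3 in SPF without blood SPF replicate 4), and 2 of 3 were higher than in spleen in each status. Ager, the receptor that marks these cells in lung, averaged 192 ± 23.6 in lung GF and 162 ± 144 in lung SPF, against 3.65 ± 3.20 in spleen GF and 2.06 ± 2.40 in spleen SPF. Hopx averaged 90.4 ± 15.8 in lung GF, against 23.9 ± 6.58 in spleen GF, and Rtkn2 12.6 ± 2.72 against 3.69 ± 3.23.

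Airway and pan-epithelial genes were also present, and the order of lung libraries differed among them. The list joins airway genes with pan-epithelial ones, among them Cdh1, Krt7, Krt8 and Krt18, so its counts are not of airway alone. Of 12 fixed, 7 were tested. In lung against blood 5 were higher in GF (2 without blood GF replicate 2) and 6 in SPF (3 without blood SPF replicate 3), and in lung against spleen 5 in GF and 6 in SPF. Scgb1a1, the club cell secretoglobin, had 78.5, 2121 and 2049 normalised counts in lung GF 2, 3 and 4 and 540, 919 and 1213 in lung SPF 1, 2 and 3. Lung GF 2 was thus the lowest library for Scgb1a1, whereas its Sftpc, at 3040, was above the values of 1715 and 2113 in lung SPF 1 and 2. Cyp2f2, a club cell cytochrome P450, had 41.0, 296 and 206 in lung GF and 43.4, 184 and 111 in lung SPF. Tppp3 was not low in lung GF 2, with 70.0, 60.2 and 81.2 in lung GF and 33.5, 46.6 and 90.6 in lung SPF. Krt7, a keratin, had 26.6, 31.0 and 44.9 in lung GF and 13.8, 53.6 and 54.1 in lung SPF, and was lowest in lung SPF 1.

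Of 23 endothelial genes fixed, 12 were tested and all 12 were higher in lung in each of the 4 comparisons with blood and spleen. The filter largely fixed that count: 8 of the 12 were tested only through their lung values, and the other 4 were Calcrl, Esam, Hpgd and Vwf. Their summed level was 960 to 2853 in lung, 18.8 to 45.7 in spleen and 22.2 to 51.9 in blood, and 7 of the 12 had 0 reads in spleen. Tspan7 averaged 426 ± 145 in lung GF and 247 ± 76.1 in lung SPF, Hpgd, which inactivates prostaglandins, 372 ± 96.4 and 145 ± 5.81, Calcrl, the receptor for adrenomedullin, 356 ± 133 and 143 ± 26.2, and Egfl7 191 ± 37.1 and 119 ± 38.5. Of 8 caveolar genes fixed, 4 were tested and 3 (Cav1, Cav2 and Ehd2) were higher in each of the 4 comparisons. Cav1, the main caveolar coat protein, had 358, 321 and 607 normalised counts in lung GF and 142, 213 and 292 in lung SPF, with 0 reads in spleen and 1 read in blood. Pacsin2, which is not confined to caveolae, averaged 163 ± 12.2 in lung GF, against 117 ± 7.64 in spleen GF and 124 ± 28.2 in blood GF. Ehd2 averaged 15.6 ± 6.59 in lung GF and 20.2 ± 15.1 in lung SPF.

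Some genes of the ALK1 and BMP pathway, in which Acvrl1 acts, also passed. Of 14 fixed, 8 were tested with Acvrl1 included. In lung against blood 4 were higher in GF (2 without lung GF replicate 4 and 2 without blood GF replicate 2) and 2 in SPF, and in lung against spleen 3 in GF and 3 in SPF. Id3, a target of BMP signalling, averaged 106 ± 16.4 in lung GF and 77.5 ± 26.1 in lung SPF, with 2 reads in spleen GF, 2 in spleen SPF, 0 in blood GF and 1 in blood SPF. Bmpr2, the receptor that pairs with ALK1, averaged 41.8 ± 19.1 in lung GF, against 20.7 ± 9.25 in spleen GF and 7.21 ± 0.28 in blood GF. Id1 and Id2, further BMP targets, passed in none of the 4 comparisons by limma, with adjusted p from 0.151 to 0.899. Id1 had 55.8 ± 17.2 in lung GF, against 24.8 ± 15.4 in spleen GF and 22.6 ± 21.5 in blood GF, but 31.8 ± 10.6 in lung SPF, against 12.5 ± 15.5 in spleen SPF and 37.2 ± 6.09 in blood SPF. Id2 had 54.8 ± 18 in lung GF, against 146 ± 111 in spleen GF, where 1 library stood at 274, and 41.0 ± 13.6 in lung SPF, against 41.8 ± 42.5 in spleen SPF.

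Stromal lists gave contrasting results for Sparc and Acta2. Of 21 fibroblast and matrix genes fixed, 9 were tested with Sparc included, and in lung against blood 8 were higher in GF and 9 in SPF, and in lung against spleen 9 in GF and 8 in SPF. Inmt, a methyltransferase, averaged 441 ± 52.1 in lung GF and 371 ± 93.2 in lung SPF, the inhibitor Timp3 157 ± 24.9 and 80.8 ± 17.3, the basement membrane collagen Col4a1 135 ± 45 and 88.6 ± 35.1, and Mgp, which restrains calcification, 103 ± 22.8 and 118 ± 28.9. Of 12 contractile genes fixed, 5 were tested with Acta2 included. In lung against blood 3 were higher (Des, Tagln and Tpm1) and Myl9 lower in GF, and 3 were higher and 2 lower (Acta2 and Myl9) in SPF. Without blood GF replicate 2 only 1 was higher in GF and 0 lower. In lung against spleen 4 were higher in GF, down to 1 without lung GF replicate 2 and 2 without spleen GF replicate 1 or 3, and 2 were higher in SPF, with 1 to 3 when single libraries were left out. These values were small: Tagln averaged 13.7 ± 1.85 in lung GF, Des 21.3 ± 11.8 and Tpm1 47.2 ± 6.26. Myl9, a myosin light chain, had 3.94 to 24.1 normalised counts in the lung libraries, 0 to 6.01 in spleen and 97.6 to 151 in blood. The platelet and erythroid sum, mostly haemoglobin there, was also highest in blood. For Acta2, both blood SPF libraries were above every lung SPF and spleen SPF library. In GF, Acta2 in blood overlapped both lung and spleen. The part of platelets in the blood levels of Acta2 and Myl9 was not tested. The 4 mesothelial genes fixed were not among the listed genes and were not analysed here.

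Over all tested genes the median log2 difference was 0.15 for lung GF against blood GF, 0.16 for lung SPF against blood SPF, 0.11 for lung GF against spleen GF and 0.06 for lung SPF against spleen SPF. In the same 4 comparisons the endothelial median was 5.03, 5.59, 5.63 and 4.79, and the matrix median 4.95, 5.46, 4.25 and 4.24. The surfactant median was 2.92, 3.34, 2.76 and 1.46, and the alveolar type I median 2.31, 2.87, 1.78 and 2.61. The airway and pan-epithelial median was 3.67, 3.64, 3.28 and 2.78. The caveolar median was 2.77, 3.74, 2.37 and 2.63, the contractile median 2.75, 2.91, 2.29 and 1.96, and the ALK1 and BMP median 1.35, 1.10, 1.17 and 1.23. Many of these genes had 0 reads outside the lung. With such genes at the bound of 3 pooled reads the endothelial median was 5.44, 6.03, 5.37 and 4.85. The airway and pan-epithelial median was then 4.48, 4.56, 3.01 and 2.78. The medians cover tested genes only. Of these, 8 of 12 endothelial and, with Sparc included, 8 of 9 matrix genes were tested only through their lung values. Among all tested genes that share was 11%. The medians thus describe that selection as well as the difference, and nothing is read from their size. Between lung GF and lung SPF, 0 genes of these lists passed in limma, and the medians were 0.87 for endothelium, 0.99 for surfactant and 0.21 for matrix genes, against 0.03 over all genes.

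**Figure D4:**
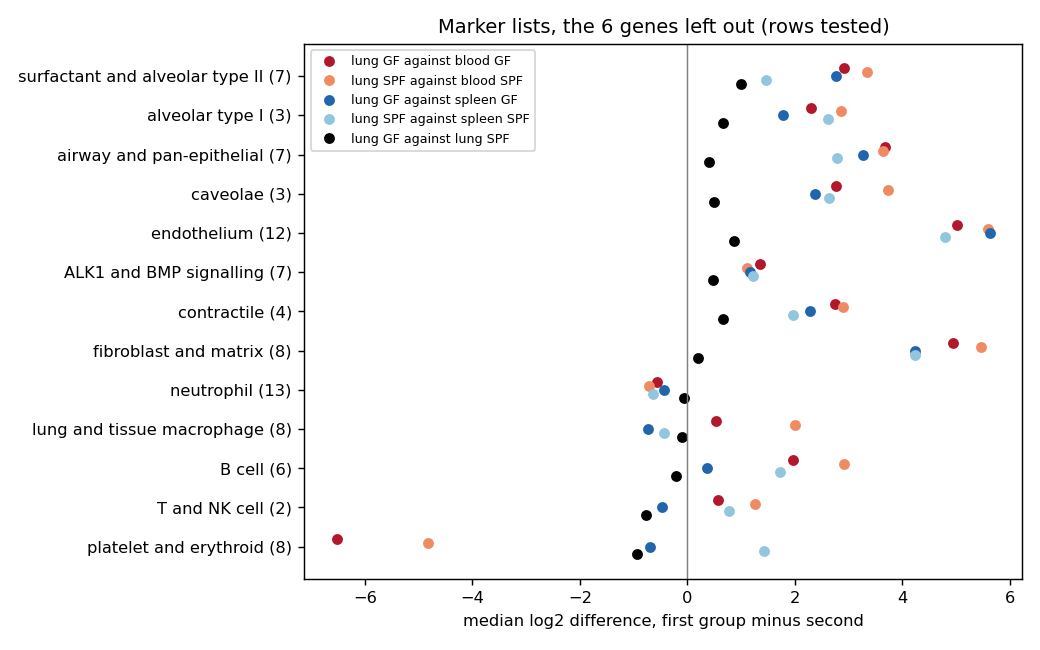
Median log2 difference of each marker list, without the 6 genes, in 5 comparisons. The number of rows tested stands beside each list. Many rows of the structural lists were tested only through their lung values, so their medians describe that selection too. Endothelial and matrix medians run from 4.24 to 5.63 against blood and spleen, the neutrophil medians of all 5 comparisons lie between -0.71 and -0.05, and the platelet and erythroid list is lowest against blood.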

How the data were processed

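Neutrophil RNA was measured by RNA-seq in 16 libraries of 6 groups. The authors deposited 1 signal value per gene and library. The submitters' processing notes name CASAVA, RSEM 1.3.1, limma and the build mm10. The annotation, the filter on genes and the scaling are not given in the sources used here. As inferred from the values, each deposited signal looks like a read count plus 0.5, times a step that is constant within a library, with 91.4 to 98.7% of low values whole within 0.05 reads, too few for a count test. Values printed are the signal less that offset, and reads are the signal over the step less 0.5.

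limma 3.58.1 in R 4.3.3 was run on log2(value + 1), with 6 group means and a trended, robust prior, for the 8299 genes that reached a value of 10 in 2 or more libraries. Benjamini-Hochberg adjustment ran over all of them, at a threshold of 0.05. Log2 differences understate changes of low genes. Floors are 3 reads over the pooled libraries, and intervals are exact at 95%. The fit was tested on simulated data. Symbols matched by identifier for 10275 of 10296 genes.

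The genes, marker lists and tests were chosen with earlier results of these data known. Named genes are the 6, up to 4 genes per list with the highest mean in lung, and the 3 most similar genes per member, of which 1 is not reported here. Replicate numbers were not taken as pairs: of 25 same-numbered pairs, 1 had a correlation of deviations over 0.1. Alternatives were another pseudocount, filter, scaling, prior, offset or depth, a replicate block, and leaving out libraries.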

Additional observations from a re-analysis of the deposited data

How the results depend on the processing

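The tests between groups were refitted under 12 alternatives and in 16 fits that each left out 1 library. Of the 6 genes, 5 passed throughout in lung GF against blood GF, lung GF against spleen GF and lung SPF against spleen SPF. In lung SPF against blood SPF 5 to 6 passed, and between lung GF and lung SPF 0 passed. Sparc, Sftpa1 and Cav2 entered the main fit only through their lung values, so nothing is read from that steadiness. Acta2 in lung GF against spleen GF turned to 0.28 with thinned reads and 0.10 without libraries under 250000 reads, and ran from -0.28 to 0.18 with 1 library left out, positive without spleen GF replicate 1. For spleen GF against blood GF it ran from -0.56 to 0.020 in the same way, positive without blood GF replicate 2. None of these passed the threshold. In spleen GF against blood GF, 0 of 6 genes passed with thinned reads. In spleen SPF against blood SPF, where 1 passed, 3 passed with a pseudocount of 0.1 and 3 with a minimum value of 100. There 0 passed with a pseudocount of 5, quantile normalization, the offset removed, thinned reads, a plain prior, no libraries under 250000 reads or only the 2 groups in the fit, 0 to 2 with 1 library left out, and 0 with the replicate block, which changed no other count of the 6 genes. Of the 15 correlated pairs, 1 passed under quantile normalization, median-ratio rescaling or thinning. Genes called over the table ran from 384 to 1091 (lung GF against blood GF, 813 as reported, 524 without lung GF replicate 4), 654 to 2588 (lung SPF against blood SPF, 1585, 706 without blood SPF replicate 3 and 975 without replicate 4), 365 to 929 (lung GF against spleen GF, 844, 556 without lung GF replicate 4) and 419 to 924 (lung SPF against spleen SPF, 802). They ran from 44 to 111 (spleen GF against blood GF, 73, with 151 without spleen SPF replicate 1, and 163 and 28 without blood GF replicates 2 and 3), 75 to 765 (spleen SPF against blood SPF, 586, with 39 and 284 without blood SPF replicates 3 and 4) and 0 to 16 (lung GF against lung SPF, 2). Median-ratio rescaling moved the median of all genes from 0.16 to -0.09 in lung SPF against blood SPF, and quantile normalization to -0.10. The cause was not tested. Groups of 2 or 3 libraries and spleen libraries of 104213 to 640596 reads limit what can be seen of low genes outside the lung.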
